A study of Mus musculus with 8 samples.

Results

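The genes described here encode eosinophil granule proteins, eosinophil-type ribonucleases and eosinophil surface receptors, measured in the spleens of lupus-prone mice with and without both functional copies of the transcription factor E2-2. They were chosen by name from a list of 8 (Ear1, Ear2, Ear6, Ear10, Epx, Prg2, Ccr3 and Siglec5), keeping every probe set annotated with members of that list alone. This gave 5 genes with 1 probe set each, Ear6, Epx, Prg2, Ccr3 and Siglecf, out of 19938 genes named alone by a probe set. The array table holds 35556 probe sets, of which 23410 carry at least 1 gene symbol. No probe set named a member together with another gene. Siglec5 is an older name that RefSeq lists for both Siglecf and Siglece, and Siglecf, the sialic acid-binding receptor known from mouse eosinophils, was taken as the member. Ear1, Ear2 and Ear10 were not analysed here.

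RNA of whole splenocytes, freed from the spleen with collagenase and DNase I, of 8 mice on a C57/B6 background was hybridised to Affymetrix Mouse Gene 1.0 ST arrays, with a single mouse on each. The groups were wild type (WT, n = 2, both labelled male), Sle1.3 mice, a lupus-prone genotype carrying lupus-susceptibility intervals (n = 3, labelled female, female and male), and Sle1.3/E2-2het mice, which carry the same Sle1.3 genotype and are haplodeficient for E2-2 (n = 3, labelled male, male and female). Both lupus-prone groups share Sle1.3, so only their comparison with each other concerns E2-2. The labels give no age and no treatment, and do not say how the E2-2 allele was made or whether it is missing from all cells.

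Eosinophils are granulocytes that develop in the bone marrow under interleukin-5 and GATA-1 and store cationic proteins in their granules. Prg2 encodes major basic protein, which forms the crystalline core of the granule, Epx the eosinophil peroxidase, and the Ear genes a rodent family of secreted ribonucleases of the ribonuclease A superfamily. Ccr3 is the receptor for the eotaxins, the chemokines that draw eosinophils into tissue, and Siglecf is an inhibitory receptor. Several of these genes are also transcribed outside eosinophils: Prg2 and Ccr3 in basophils, and Siglecf and some Ear genes in certain macrophages.

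The bases before the transcription start are shown for Ear6 and Epx, granule genes that rose in Sle1.3 spleens, and for Ccr3, which had another pattern. All are from RefSeq on GRCm38.p6 and read 5′ to 3′ over the 250 bases before the start. Ear6 is at chr14:51853518-51853767, plus strand, Epx at chr11:87875537-87875786, minus strand and Ccr3 at chr9:124021721-124021970, plus strand. Capitals mark matches to GATAA, the core bound by GATA factors, or TTGCNNAA, a C/EBP-type motif, on either strand.
Ear6: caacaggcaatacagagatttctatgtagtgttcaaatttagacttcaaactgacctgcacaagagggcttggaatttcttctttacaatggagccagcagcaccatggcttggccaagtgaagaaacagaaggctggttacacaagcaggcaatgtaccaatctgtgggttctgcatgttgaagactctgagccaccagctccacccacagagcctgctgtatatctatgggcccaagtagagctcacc
Epx: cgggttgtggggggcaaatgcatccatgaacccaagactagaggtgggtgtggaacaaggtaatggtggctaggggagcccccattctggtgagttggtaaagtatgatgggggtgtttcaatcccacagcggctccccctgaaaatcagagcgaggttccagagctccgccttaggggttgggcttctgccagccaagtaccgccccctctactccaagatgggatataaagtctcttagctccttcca
Ccr3: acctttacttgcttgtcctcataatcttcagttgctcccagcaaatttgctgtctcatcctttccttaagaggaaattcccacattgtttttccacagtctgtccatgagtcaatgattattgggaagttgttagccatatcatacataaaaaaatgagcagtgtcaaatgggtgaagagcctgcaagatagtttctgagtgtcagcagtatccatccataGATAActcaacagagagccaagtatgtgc
In the full window, which adds 50 bases after the start, GATAA was found in 3 of 4 measured members with a listed promoter and TTGCNNAA in 0 of 4, against 25.4% and 10.8% of all 32851 promoters in the table. The GATAA match of Ccr3 began at position -29 on the plus strand of the gene, that of Ear6 at position 3 after the start on the opposite strand, and that of Siglecf at position 13. The Ear promoters are close copies but not identical. Ear1, Ear2 and Ear10, which were not analysed here, carry TTGCNNAA at positions -92, -90 and -94, while Ear6 has no match. The upstream bases of Ear6 share an unbroken run of 57 bases with those of Ear1, with those of Ear2 and with those of Ear10. Transcripts of this family can also be alike, so the Ear6 probe set may read relatives of Ear6 as well.

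The arrays fell into a first set of 6, 2 of each genotype, and a second set of 2, Sle1.3 replicate 3 and the array labelled Sle1.3/E2-2het replicate 3. Their lowest linear intensities were 4.57 to 5.11 and 10.9 to 11.2, and their median log2 intensities 5.83 to 5.95 and 6.17. This division comes from the values and not from the labels. Both WT arrays had a wider spread of log2 values than the others. Their interquartile ranges were 2.77 and 2.97, against 2.41 to 2.57 on the other arrays. The part of this spread in the differences from WT was not tested. Tcf4, the gene of E2-2, was 9.02 and 8.80 in WT, 8.67, 8.63 and 9.06 in Sle1.3, and 8.18, 8.13 and 9.25 after loss of an E2-2 copy. The array labelled Sle1.3/E2-2het replicate 3 thus did not have the lower level that its label would give, provided the probes lie in the lost part of the gene, which is not known here. Xist, transcribed from the inactive X of females, was 4.12 and 3.75 in WT, 10.77, 10.68 and 11.90 in Sle1.3, and 3.79, 4.29 and 11.82 in Sle1.3/E2-2het. Sle1.3 replicate 3 thus went against its label of male, and by Xist all Sle1.3 mice were female and both WT mice male, so genotype and sex cannot be told apart between them. The same holds for Sle1.3/E2-2het against Sle1.3 in the first set, where the Sle1.3/E2-2het mice were male, while the mice of the second set both had female Xist levels. Results are also given for the first set alone, without either array of doubt. There Sle1.3 against WT was still female against male by Xist, while the Sle1.3/E2-2het and WT mice all had male Xist levels. Within each lupus-prone group labelled sex sets only replicate 3 apart, which is also the array of the second set. As a covariate, labelled sex thus cannot adjust for sex, and calls kept or lost with it are no check on sex. A probe set's level is not compared with that of another.

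The granule genes Ear6, Epx and Prg2 rose in Sle1.3 spleens relative to WT. Ear6, a secreted ribonuclease, had log2 intensities of 5.14 and 5.24 in WT and of 8.16, 6.82 and 9.03 in Sle1.3 replicates 1, 2 and 3. Every Sle1.3 value lay above both WT values, with replicate 3 highest and replicate 2 lowest. The rise was 7.03-fold (95% confidence interval 2.97 to 16.6), a log2 difference of 2.81 (SE 0.56, limma adjusted p = 0.0192), and within the first array set it amounted to 2.30 (SE 0.46, adjusted p = 0.0110). In a bulk sample, more cells of a type and more RNA per cell cannot be told apart.

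Epx, the peroxidase of eosinophil granules, was 4.60 and 4.56 in WT and 6.17, 5.53 and 6.14 in Sle1.3. The WT values lay just under the 25th percentile of their arrays (4.65 and 4.57), as did the value of Sle1.3/E2-2het replicate 3 (5.13), a range where signal and background are hard to separate. Every Sle1.3 value was above WT. The log2 difference of these signals was 1.37 (SE 0.25, 95% confidence interval 0.82 to 1.92, limma adjusted p = 0.0130) and 1.28 in the first set (adjusted p = 0.00620).

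Prg2, which encodes major basic protein, was 6.37 and 6.52 in WT and 8.26, 7.24 and 9.005 in Sle1.3, with the same order of the mice as for Ear6. It rose 3.30-fold (95% confidence interval 1.71 to 6.40), a log2 difference of 1.72 (SE 0.43, limma adjusted p = 0.0483), and by 1.31 in the first set (adjusted p = 0.0216). The Prg2 call was the least firm. It was lost without Sle1.3 replicate 3 (1.31, adjusted p = 0.0601), on leaving out replicate 1 (adjusted p = 0.0566) or 2 (adjusted p = 0.0679) of the Sle1.3/E2-2het group, and with 1 probe set per gene (adjusted p = 0.0619).

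The surface receptors did not pass in the same comparison. Ccr3, the eotaxin receptor, was 5.79 and 6.35 in WT and 6.45, 6.51 and 6.58 in Sle1.3, a log2 difference of 0.44 (95% confidence interval -0.12 to 1.00, limma adjusted p = 0.327). The Sle1.3 mice lay close together and just above the higher WT mouse. Siglecf was 5.99 and 5.75 in WT and 6.22, 6.06 and 7.38 in Sle1.3, a difference of 0.69 (95% confidence interval -0.30 to 1.67, adjusted p = 0.373), and of 0.27 in the first set (adjusted p = 0.241).

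In all, 3 of the 5 probe sets rose and 0 fell from WT to Sle1.3 in limma, beside 5.16% of all probe sets that passed, 3.5% rising and 1.66% falling. In the first set the same 3 rose, as did 8.53% of all probe sets. In 5 of 5 every Sle1.3 value was above every WT value, a pattern that 31.7% of all probe sets also had. The median log2 difference was 1.37 over the 5 and 0.17 over all probe sets. Both scalings kept the 3 calls and their direction while they moved the median of all probe sets to 0.04 (median centring) and 0.03 (quantile normalization). Over all probe sets, 820 rose and 389 fell, and with median centring 1443 rose and 1751 fell. Leaving out WT replicate 1, WT replicate 2 or Sle1.3 replicate 1 ended all 3 calls, with adjusted p of 0.112, 0.169 and 0.0545 for Epx and of 0.154, 0.203 and 0.0643 for Ear6. The log2 differences hardly moved (1.26 to 1.39 for Epx and 2.74 to 2.86 for Ear6).

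**Figure D1:**
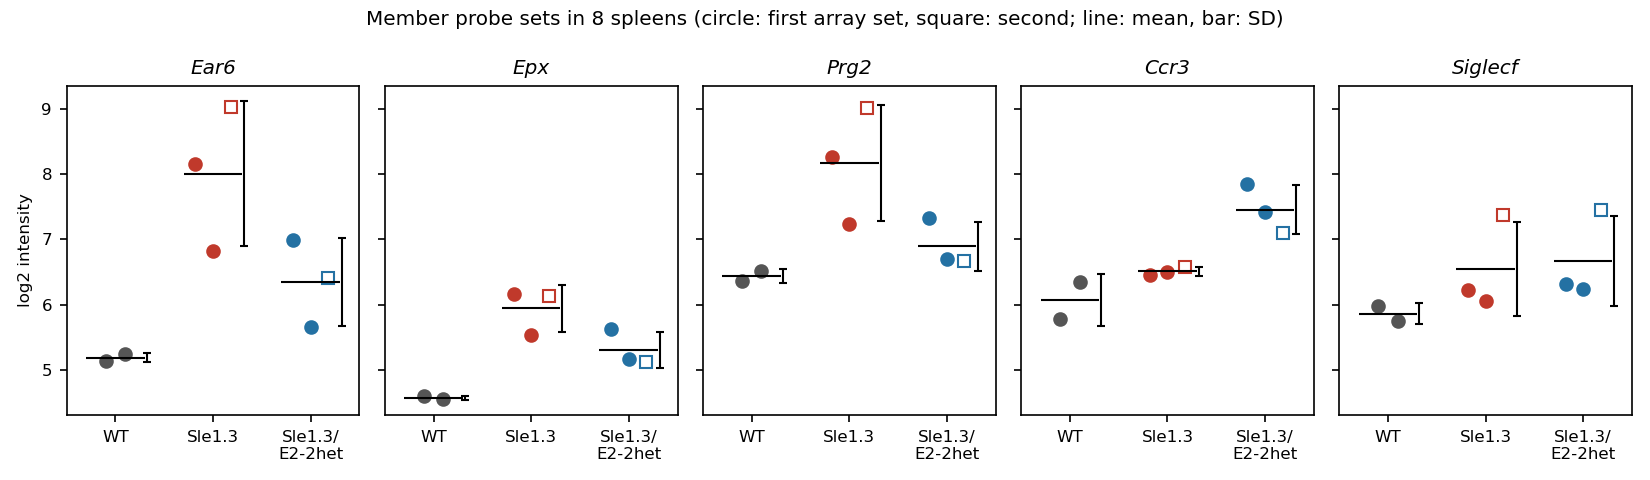
Log2 intensity of the 5 member probe sets in each of 8 spleens by genotype (WT n = 2, Sle1.3 n = 3, Sle1.3/E2-2het n = 3), with circles for the first array set, open squares for the second, a line for the group mean and a bar for the SD. Ear6, Epx and Prg2 are highest in Sle1.3, Ccr3 is highest in Sle1.3/E2-2het, and Siglecf is highest on the 2 arrays of the second set (7.38 and 7.46).

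The comparison of Sle1.3/E2-2het with Sle1.3 asks what the loss of 1 E2-2 copy does in the lupus-prone spleen. The granule genes were lower and Ccr3 was higher in Sle1.3/E2-2het mice, but no member passed over all 8 arrays. Ear6 was 7.00, 5.65 and 6.41 in Sle1.3/E2-2het replicates 1, 2 and 3. These values overlap those of Sle1.3, since the highest exceeds the lowest Sle1.3 value of 6.82. The log2 difference was -1.65 (95% confidence interval -2.76 to -0.54, limma adjusted p = 0.932), and -1.17 in the first set (adjusted p = 0.431).

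Prg2 was 7.33, 6.70 and 6.66 in Sle1.3/E2-2het mice, again with replicate 1 above the lowest Sle1.3 mouse. Its difference was -1.27 (95% confidence interval -2.12 to -0.42, limma adjusted p = 0.931), and -0.73 in the first set (adjusted p = 0.458). Epx was 5.63, 5.17 and 5.13, a difference of -0.64 (95% confidence interval -1.13 to -0.15, adjusted p = 1.00), and -0.45 in the first set (adjusted p = 0.512). Same-numbered mice of the 2 genotypes deviate together over all probe sets, though the third pair also shares the second array set. Within the pairs the granule genes were lower in Sle1.3/E2-2het in 3 of 3 cases, a count not taken over all probe sets. The pair differences were -1.16, -1.17 and -2.62 for Ear6, -0.93, -0.54 and -2.34 for Prg2, and -0.55, -0.36 and -1.01 for Epx. The third pair, on the second array set and alike in Xist, had the widest gap for all 3 genes. Its array labelled Sle1.3/E2-2het is the one without a lower Tcf4 level (9.25, against 9.06 in Sle1.3 replicate 3).

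Ccr3 went the other way. It was 7.86, 7.41 and 7.10 in Sle1.3/E2-2het mice, and every value lay above every Sle1.3 value (6.45 to 6.58). The log2 difference was 0.95 (95% confidence interval 0.44 to 1.45, limma adjusted p = 0.662), with pair differences of 1.41, 0.90 and 0.53, the last in the pair alike in Xist. In the first set alone it was 1.16 and passed (SE 0.21, adjusted p = 0.0472), and without the array labelled Sle1.3/E2-2het replicate 3 it was 1.12 and passed (adjusted p = 0.0499). Both fits leave out that array. In both, all Sle1.3/E2-2het mice had male and all Sle1.3 mice female Xist levels, so genotype and sex cannot be told apart. Siglecf was 6.31, 6.24 and 7.46, a difference of 0.12 (95% confidence interval -0.76 to 0.99, adjusted p = 1.00), with pair differences of 0.09, 0.18 and 0.08.

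For the E2-2 comparison 0% of all probe sets passed in limma over 8 arrays, with 723 at an unadjusted p under 0.05, among them 4 of the 5 members (Ear6, Epx, Prg2 and Ccr3). In 1 of the 5 members the groups did not overlap, and every value was higher in Sle1.3/E2-2het, as in 2.71% of all probe sets, while 0 members and 3.23% of all probe sets were lower throughout. With the replicate number as a block, 68 probe sets passed (0.29%) and 0 members, with adjusted p of 0.0915 for Ear6, 0.0941 for Ccr3, 0.131 for Epx and 0.132 for Prg2. In the first set Ccr3 was the 1 member that rose, as did 0.461% of all probe sets, and the same share (0.461%) rose without the array labelled Sle1.3/E2-2het replicate 3.

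**Figure D2:**
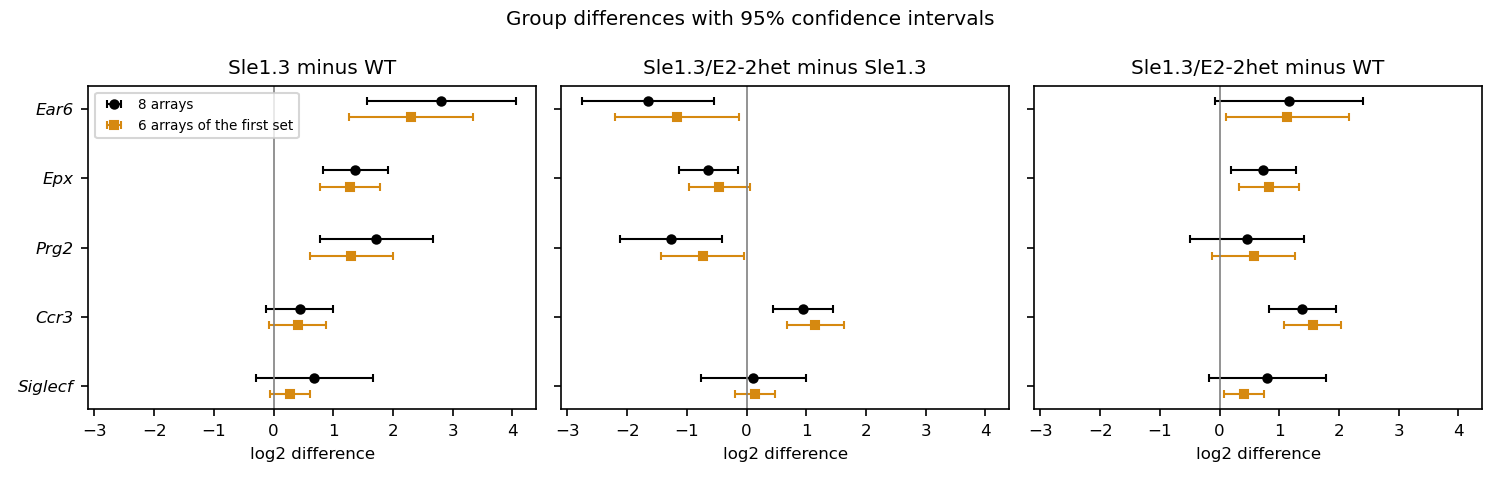
Log2 differences of the 5 members between genotypes with 95% confidence intervals from limma, for all 8 arrays (black circles) and for the 6 arrays of the first set (orange squares). Ear6, Epx and Prg2 lie above 0 in Sle1.3 against WT and below 0 in Sle1.3/E2-2het against Sle1.3, where Ccr3 lies above 0. In the latter comparison the first-set interval of Epx includes 0 (-0.96 to 0.05), and no member passed over 8 arrays.

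Sle1.3/E2-2het mice were also compared with WT, using the same 2 WT mice as above. Ccr3 rose 2.61-fold (95% confidence interval 1.77 to 3.86), from 5.79 and 6.35 in WT to 7.10 to 7.86, a log2 difference of 1.39 (SE 0.25, limma adjusted p = 0.0121) and of 1.56 in the first set (adjusted p = 0.00126). The call was lost without WT replicate 1 (1.11, adjusted p = 0.138) and without WT replicate 2 (1.67, adjusted p = 0.0645). The granule genes lay between WT and Sle1.3 in their means. Their differences from WT were 1.16 for Ear6 (95% confidence interval -0.08 to 2.40, adjusted p = 0.207), 0.73 for Epx (0.18 to 1.28, adjusted p = 0.0993) and 0.45 for Prg2 (-0.50 to 1.41, adjusted p = 0.468). Epx rose in the first set (0.82, adjusted p = 0.0231), where 15% of all probe sets did. With quantile normalization over 8 arrays its difference was 0.39 (limma adjusted p = 0.354).

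Siglecf differed from WT by 0.80 (95% confidence interval -0.18 to 1.78, limma adjusted p = 0.254). In the first set this was 0.41 (adjusted p = 0.0616), and with the array set as a block it was 0.40 and passed (adjusted p = 0.0418). So 1 of 5 members rose over 8 arrays, beside 6.2% of all probe sets that passed, 4.33% rising and 1.87% falling. Blocking on the array set, and likewise on the replicate number, 3 of 5 members rose (Ccr3, Epx and Siglecf), where 15.7% and 17.9% of all probe sets did. In 5 of 5 members every Sle1.3/E2-2het value was above both WT values, as in 36.9% of all probe sets. Over all probe sets 1014 rose and 437 fell, against 1721 and 3197 with median centring and 1292 and 1009 with quantile normalization.

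Siglecf followed the array set more than the genotype. It was 7.38 and 7.46 on the 2 arrays of the second set and 5.75 to 6.31 on the 6 of the first. Within the first set its group means ascended from WT to Sle1.3 to Sle1.3/E2-2het, in steps of 0.27 and 0.14. The limma interval of each step includes 0, while that from WT to Sle1.3/E2-2het was 0.08 to 0.74 (adjusted p = 0.0616). The member probe sets thus did not move as 1 group. Over the 8 arrays Pearson's r was 0.97 between Ear6 and Prg2, 0.96 between Ear6 and Epx and 0.92 between Epx and Prg2, and 0.12, 0.01 and 0.25 between Ccr3 and Ear6, Prg2 and Epx. These values describe arrays that share genotype groups and array sets.

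Other genes of the eosinophil system were taken from 4 lists. Among 15 measured genes of the ribonuclease A superfamily outside the members, 2 rose and 0 fell between Sle1.3 and WT, with a median log2 difference of 0.55 beside 0.17 over all probe sets. Among the first 6 arrays 4 rose with a median of 0.31, and with labelled sex as a covariate 0 did. Ear14, another eosinophil-type ribonuclease gene, was 3.40 and 3.35 in WT, 4.19, 4.06 and 4.66 in Sle1.3, and 4.46, 4.71 and 4.60 in Sle1.3/E2-2het mice. All 8 values are under the 25th percentile of their arrays, so this is a difference between very dim signals. It was 0.93 in Sle1.3 (limma adjusted p = 0.0352) and 1.21 in Sle1.3/E2-2het (adjusted p = 0.0102) against WT. The first of these calls was lost without any 1 of 6 of the 8 arrays (the exceptions were Sle1.3 replicate 2 and the array labelled Sle1.3/E2-2het replicate 3), with adjusted p up to 0.293, and with labelled sex, quantile normalization or an eBayes trend. The second was lost without either WT mouse, with adjusted p up to 0.147. Ang6, an angiogenin gene of the same superfamily, rose by 0.95 (adjusted p = 0.04999) and 1.02 (adjusted p = 0.0347) in the same comparisons, and its calls were lost without any 1 of 6 and of 5 arrays and with labelled sex.

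Of 17 measured receptors and enzymes of eosinophils, 0 rose and 3 fell between Sle1.3 and WT in limma, while 9 of the 17 differences were above 0 (median 0.11). Il5ra, the specific chain of the interleukin-5 receptor, which is also present on B-1 cells, was 7.35 and 7.49 in WT, 5.76, 6.10 and 5.78 in Sle1.3, and 6.05, 6.42 and 5.96 in Sle1.3/E2-2het mice. Every lupus-prone mouse lay below both WT mice, the nearest being Sle1.3/E2-2het replicate 2 (6.42) and WT replicate 1 (7.35). The share of all probe sets with this pattern was not taken. It fell by 1.54 in Sle1.3 (SE 0.21, limma adjusted p = 0.00363) and by 1.27 in Sle1.3/E2-2het mice (SE 0.21, adjusted p = 0.00706). Among the first 6 arrays the differences were -1.49 (adjusted p = 0.000913) and -1.18 (adjusted p = 0.00219). The call in Sle1.3 was lost without WT replicate 2 (adjusted p = 0.0926), and that in Sle1.3/E2-2het mice without WT replicate 1 or WT replicate 2 (adjusted p up to 0.130).

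Csf2rb, the chain shared by the receptors for interleukin-3, interleukin-5 and GM-CSF, fell by 1.34 in Sle1.3 (limma adjusted p = 0.0267), from 8.94 and 8.95 in WT to 7.95, 7.25 and 7.62. Il4ra, the interleukin-4 receptor chain found on many lymphocytes, fell by 1.37 (adjusted p = 0.0164). Both calls were lost without WT replicate 1 or WT replicate 2, that of Csf2rb also without Sle1.3 replicate 2 or with labelled sex as a covariate and that of Il4ra also without Sle1.3 replicate 1, with adjusted p up to 0.248 and 0.175. Prg3, which encodes a homologue of major basic protein and lies on the same list, was 5.38 and 5.04 in WT, 6.25, 5.59 and 6.35 in Sle1.3, and 5.78, 5.67 and 5.85 in Sle1.3/E2-2het mice. Its order of the Sle1.3 mice was like that of Prg2, but its difference from WT of 0.86 did not pass (adjusted p = 0.0785). It was chosen after its values were seen, as was Siglece, the other gene with the older name Siglec5, at 6.49 and 6.46 in WT, 7.71, 7.31 and 8.45 in Sle1.3, and 7.55, 6.93 and 7.77 in Sle1.3/E2-2het mice.

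**Figure D3:**
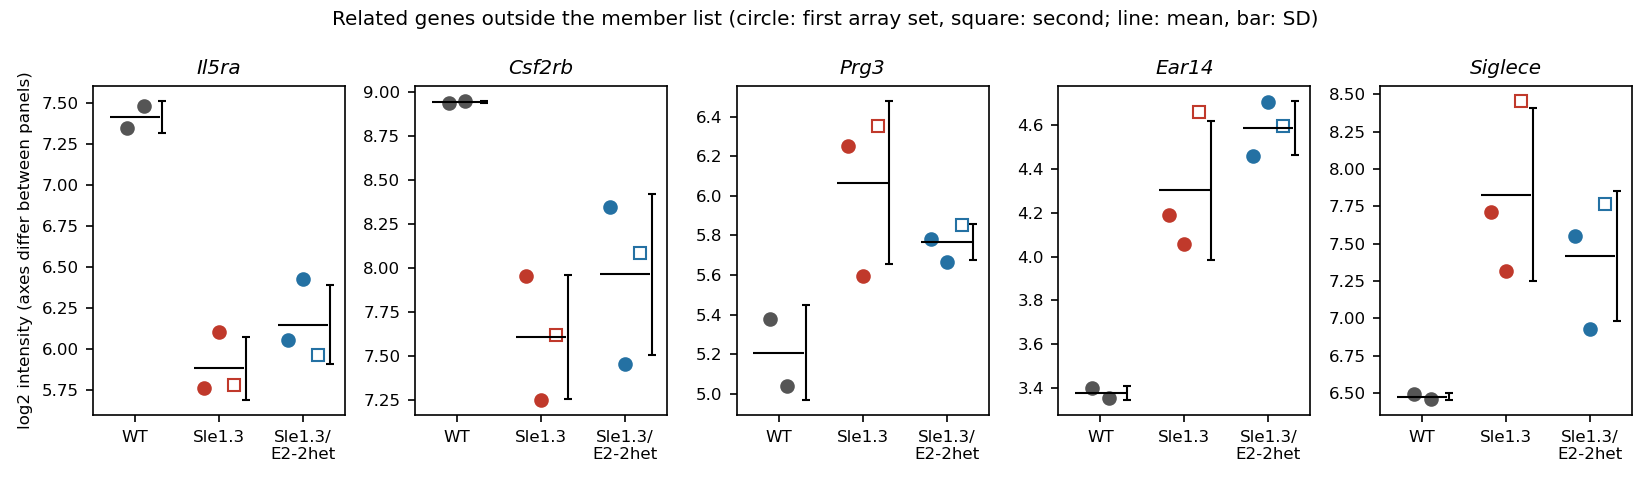
Log2 intensity of 5 genes related to the members in each of 8 spleens by genotype, drawn as for the members and with a separate axis for each gene. Il5ra and Csf2rb are highest in the 2 WT mice, while Prg3, Ear14 and Siglece are lowest there.

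Growth factors and chemoattractants of eosinophils, and regulators of the lineage, gave no call over 8 arrays. Of 14 measured ligands 0 passed in limma between Sle1.3 and WT, while an unadjusted p under 0.05 was met by 1 higher and 1 lower gene (median 0.35), beside 22.1% of all probe sets. Ccl5, a ligand of CCR3 among other receptors, had the smallest p (-0.75, adjusted p = 0.101) and fell in the first set (-0.80, adjusted p = 0.0129), followed by Il25, an inducer of type 2 cytokines (0.50, adjusted p = 0.173, and 0.0808 among the first 6 arrays). Of 12 transcription regulators 0 passed, while 2 higher genes and 1 lower gene had an unadjusted p under 0.05 (median 0.06). Gata1, needed for the eosinophil, erythroid and megakaryocyte lineages, differed by 0.83 (adjusted p = 0.101, with 0.0309 for the first set), while Cebpb differed by -0.54 (adjusted p = 0.115, with 0.0334 for the first set).

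When E2-2 haplodeficient and plain Sle1.3 spleens were set against each other, 0 genes of these 4 lists passed in limma. At an unadjusted p under 0.05, 1 receptor or enzyme was higher (Il4ra, 0.73) and 1 lower (Cysltr2, a leukotriene receptor, -0.91), and 1 regulator was lower (Xbp1, a factor of secretory cells including eosinophil precursors, -0.79), while 0 ribonucleases and 0 ligands met it, beside 3.09% of all probe sets. Between Sle1.3/E2-2het and WT, 2 ribonucleases rose and 1 receptor fell, as given above, and 0 ligands and 0 regulators passed over 8 arrays. On the arrays of the first set, 7 of 15 ribonucleases rose and 5 of 17 receptors or enzymes fell. Of 14 ligands 2 rose and 1 fell, and of 12 regulators 1 rose and 2 fell. In that set 3511 (15%) of all 23410 probe sets rose and 3882 fell. Over 8 arrays Gata1 was close to the threshold in this comparison, with a difference of 1.01 (adjusted p = 0.0502, and 0.00587 in the first set). An unadjusted p under 0.05 was met by 1 higher and 1 lower ligand, and by 1 higher and 2 lower regulators, beside 27.1% of all probe sets.

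Neutrophil markers were high in the lupus-prone spleens. Of all probe sets 3.5% rose in limma between Sle1.3 and WT, and 4.33% between Sle1.3/E2-2het and WT (15% in the first set). Of 15 neutrophil and precursor markers 12 rose and 0 fell between Sle1.3 and WT, with a median of 2.95 beside 0.17 over all probe sets. The count fell to 2, 0 and 3 without WT replicate 1, WT replicate 2 and Sle1.3 replicate 1, and to 4 with labelled sex as a covariate. Between Sle1.3/E2-2het and WT, where 0 of Ear6, Epx and Prg2 passed over 8 arrays, 8 of the 15 rose (13 in the first set, 5 with labelled sex, 0 without either WT mouse and 1 without Sle1.3/E2-2het replicate 1). Their mean log2 level was 7.14 and 6.76 in WT, 10.30, 8.48 and 10.19 in Sle1.3, and 9.94, 8.52 and 8.92 in Sle1.3/E2-2het mice. As for Ear6, Epx and Prg2, replicate 2 was the lowest Sle1.3 mouse and replicate 1 the highest Sle1.3/E2-2het mouse. Of 12 basophil and mast cell markers 1 rose between Sle1.3 and WT (median 0.22 beside 0.17 over all probe sets), the protease gene Prss34, at 5.54 and 5.57 in WT and 7.79, 6.55 and 8.12 in Sle1.3 (1.93, adjusted p = 0.0210), a call lost without WT replicate 1, WT replicate 2 or Sle1.3 replicate 1 (adjusted p up to 0.222). The mean level of that list was 5.26 to 5.32 in WT, 5.28 to 6.30 in Sle1.3 and 5.65 to 5.81 in Sle1.3/E2-2het mice. The part of these cells in the levels of Prg2, Epx and Ear6 was not tested.

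Erythroid markers stood highest where Ccr3 did. Of 6 erythroid markers 5 rose between Sle1.3/E2-2het and WT in limma, a count of 0 without WT replicate 1 or WT replicate 2 and of 3 without Sle1.3/E2-2het replicate 1 or 2, and their mean level was 5.59 to 5.90 in WT, 5.68 to 6.57 in Sle1.3 and 7.10 to 7.85 in Sle1.3/E2-2het mice. The 12 monocyte and macrophage markers averaged 6.41 to 6.86 in WT, 7.01 to 7.57 in Sle1.3 and 7.20 to 7.53 in Sle1.3/E2-2het mice, with 3 that rose in Sle1.3 (1 without WT replicate 1 or WT replicate 2) and 1 that rose in Sle1.3/E2-2het against WT. The first set alone gave 7 in the latter comparison, where 15% of all probe sets rose. Without Sle1.3 replicate 3 or Sle1.3/E2-2het replicate 3 the counts were 4 and 3. The 1 that rose over 8 arrays was Vcam1, an adhesion molecule of red pulp macrophages (1.15, limma adjusted p = 0.0322), a call lost without WT replicate 1, WT replicate 2, Sle1.3 replicate 1 or Sle1.3/E2-2het replicate 1 (adjusted p up to 0.210) and with labelled sex. The mean of the 4 B cell markers was 11.07 to 11.33 in WT, 10.92 to 11.19 in Sle1.3 and 10.68 to 11.30 in Sle1.3/E2-2het mice, that of the 6 T cell markers 8.60 to 8.96, 8.48 to 8.84 and 8.33 to 9.08, and 0 of them passed in either comparison with WT over 8 arrays. In the first set 1 B cell marker fell in Sle1.3, and 2 B cell and 3 T cell markers fell in Sle1.3/E2-2het. Of all 23410 probe sets, 1948 and 3882 fell in these comparisons with WT. The part of macrophages and erythroid cells in the level of Ccr3 was not tested. On the eosinophil list itself, of 6 measured markers 2 rose (Epx and Prg2) and 1 fell (Il5ra) in Sle1.3 against WT, so the markers did not agree on 1 direction.

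**Figure D4:**
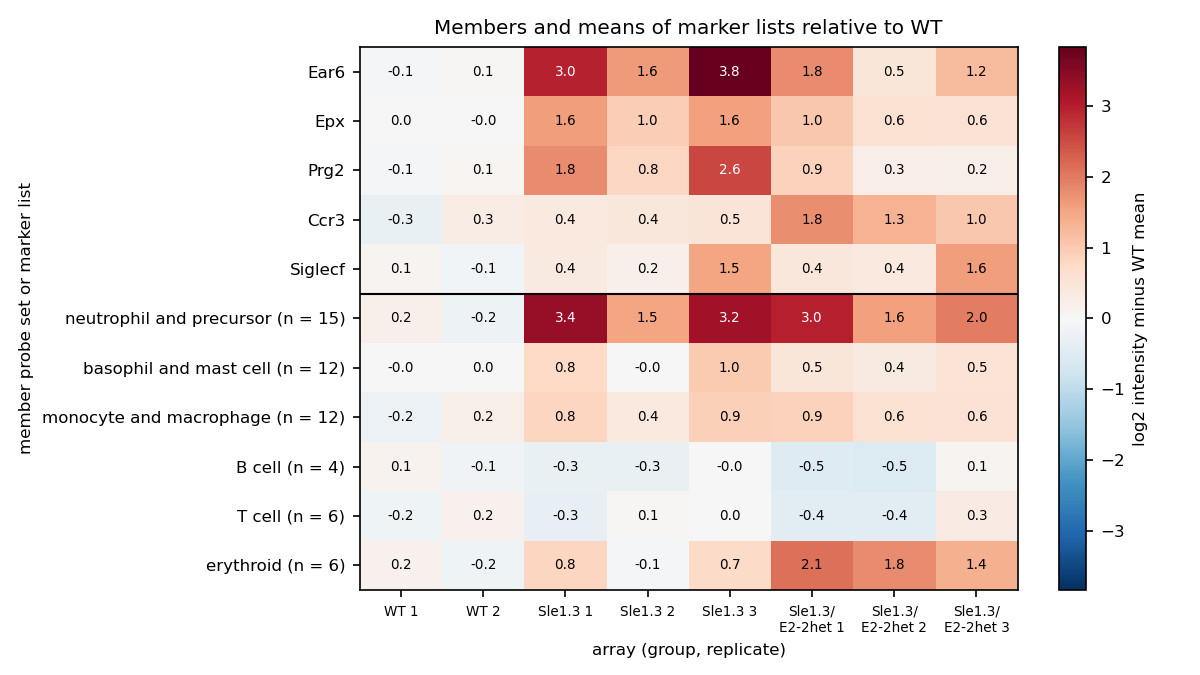
Log2 intensity minus the WT mean on each array for the 5 members (above the line) and for the mean of each marker list (below, with the number of genes), red for higher and blue for lower. Ear6, Epx, Prg2 and the neutrophil list are high in Sle1.3 replicates 1 and 3, while Ccr3 and the erythroid list are highest in the 3 Sle1.3/E2-2het mice.

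The genes outside the members whose pattern over the 8 arrays was most like each of them were taken from 2240 single-gene probe sets with an SD of at least 0.5, as a description. For Ear6 they were Knl1, a kinetochore gene, Cd300e, a receptor of monocytes, and Top2a, a topoisomerase of dividing cells (Pearson's r 0.97 each). For Epx they were Knl1, Gatm and Esco2 (0.99, 0.99 and 0.98), and for Prg2 the spindle motor gene Kif11, the basophil protease gene Mcpt8 and Cd300e (0.97, 0.96 and 0.96). Mcpt8 was 4.88 and 4.56 in WT, 7.44, 5.33 and 7.97 in Sle1.3, and 6.16, 5.47 and 5.47 in Sle1.3/E2-2het mice. As for Prg2, replicate 3 was the highest and replicate 2 the lowest Sle1.3 mouse, and replicate 1 the highest Sle1.3/E2-2het mouse. For Ccr3 they were Mrc1, the mannose receptor of macrophages, Slc40a1, the iron exporter ferroportin, and Spic, a transcription factor of red pulp macrophages (0.98, 0.96 and 0.95). Mrc1 was 5.86 and 6.60 in WT, 6.40, 6.37 and 6.49 in Sle1.3, and 7.88, 7.20 and 7.12 in Sle1.3/E2-2het mice, which is nearly the course of Ccr3. For Siglecf they were the chemosensory receptor genes Vmn1r212, Olfr765 and Olfr434 (0.999, 0.999 and 0.998), all highest on the arrays of the second set. Olfr434, for instance, was 5.97 on both arrays of the second set and 3.45 to 4.34 on the 6 others.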

How the data were processed

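The authors deposited 1 table with a linear intensity for each of 35556 probe sets on 8 arrays. The tools named in the submitters' processing notes are Affymetrix Expression Console and RMA. Versions and the annotation build are not given in the sources used here. Values range from 4.57 to 20352, and log2 was taken with no pseudocount. No detection call was used, and the number of arrays limits precision. Of the probe sets, 21789 carry 1 gene symbol, 1621 several and 12146 none in the platform annotation.

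All 23410 annotated probe sets, with no filter on level, entered 1 limma fit (limma 3.58.1, R 4.3.3, lmFit and eBayes, two-sided, 5 residual degrees of freedom) on the 3 genotypes with no covariate. Labelled sex was left to an alternative, since 1 mouse goes against it. Within the lupus-prone groups it follows the array set, so that alternative cannot adjust for sex. Adjusted p values are Benjamini-Hochberg over all probe sets tested, at a threshold of 0.05. The labels do not say that the mice came from separate litters or days. Same-numbered mice of both lupus-prone groups deviated together (r of 0.54, 0.40 and 0.59 over probe sets), so the replicate number was tried as a block. Replicate 3 of both groups forms the second array set, so these values mix array set and replicate number. Between replicates 1 and 2 of different number, r was 0.15 and 0.12. With WT the same-numbered correlations were -0.07 to 0.22.

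List genes were matched by RefSeq symbol or unique synonym and represented by their brightest probe set. From each list up to 4 genes that passed are named, or up to 2 with the smallest p. Members, lists and alternatives were chosen with earlier results of these data known.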

Additional observations from a re-analysis of the deposited data

How the results depend on the processing

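All 17 alternatives, including each array left out in turn, kept the direction of Ear6, Epx, Prg2 and Ccr3 in the 3 comparisons. The difference of Siglecf from Sle1.3 to Sle1.3/E2-2het, 0.12 and never past the threshold, reversed to -0.05 when Sle1.3 replicate 1 was left out, to -0.13 for Sle1.3 replicate 2 and to -0.28 for Sle1.3/E2-2het replicate 3, and was 0.53 when Sle1.3 replicate 3 was. Over the alternatives the log2 difference between Sle1.3 and WT was 2.30 to 3.40 for Ear6 (adjusted p 0.00243 to 0.203), 1.13 to 1.58 for Epx (0.00113 to 0.169) and 1.31 to 2.26 for Prg2 (0.00701 to 0.305), and that of Ccr3 between Sle1.3/E2-2het and WT was 1.11 to 1.67 (0.00126 to 0.138). With 1 array left out, the count of members past the threshold ranged from 0 to 3 in Sle1.3 against WT, from 0 to 1 in Sle1.3/E2-2het against Sle1.3 and from 0 to 1 in Sle1.3/E2-2het against WT. Leaving out a WT mouse leaves that group with 1 array, assumed to vary like the others. The first array set gave 1 member (Ccr3) in the E2-2 comparison and 2 (Ccr3 and Epx) between Sle1.3/E2-2het and WT. Blocking on the replicate number or on the array set gave 3 in the latter (Ccr3, Epx and Siglecf); the replicate block changed no other member call. In the block fits the WT differences draw partly on the other lupus-prone group.

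The total of probe sets past the threshold also moved. In Sle1.3 against WT it was 1209, and 345 with labelled sex, 6442 with the replicate block, 5376 with the array set so used, 3946 in the first array set, 3194 with median centring, 1932 with quantile normalization, 538 with 1 probe set per gene, and 42 to 2462 with 1 array left out. In Sle1.3/E2-2het against Sle1.3 it was 0, and 68, 32 and 180 with the replicate block, the array set so used and the first set, and 0 to 153 with 1 array left out. In Sle1.3/E2-2het against WT it was 1451, and 750 with labelled sex, 8774 with the replicate block, 7547 with the array set so used, 7393 in the first set, 4918 with median centring, 2301 with quantile normalization, 619 with 1 probe set per gene, and 148 to 2639 with 1 array left out. The cause was not tested. With 2 or 3 mice per group, and Epx near the lower quartile of the arrays in WT, small differences were not detectable.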
